A study of Mus musculus with 10 samples.

Results

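The heat shock chaperones examined here are 10 genes listed by symbol: Hspa1a, Hspa1b, Hspa8, Hsp90aa1, Hsp90ab1, Hsph1, Hspb1, Hspb8, Dnajb1 and Bag3. The symbols were looked up in a deposited mRNA table of 24736 gene symbols, and all 10 were found there and passed the low-count filter. The mice were Kunming females, an outbred stock, 4 weeks old by their labels, and RNA was taken from the whole eyeball. Natural light was the condition of 2 libraries (control A and B), and an 18 W blue lamp inside a dark container that of 3 libraries (blue A, B and C). Day 14 stands in each sample title. The labels give no genetic change in either group and do not tell whether a group's libraries are separate animals, so each p-value measures the spread between these samples alone, which may be technical.

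Heat shock proteins are molecular chaperones, which bind unfolded protein and either hold it, refold it with ATP or pass it on for degradation. The HSP70 proteins do the folding work together with a J-domain partner that delivers the substrate and an exchange factor that releases it, HSP90 matures kinases and receptors, and the small heat shock proteins hold aggregating protein without ATP. Under stress, heat shock factor 1 (HSF1) binds heat shock elements, which are alternating runs of the unit NGAAN, and raises the inducible members of each class. In the eye, chaperones fold the proteins of the outer segment, small heat shock proteins of the crystallin family make up much of the lens, and prior heating of animals has been used to raise chaperones before bright-light exposure.

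Library totals ran from 87071487 to 107660103 estimated counts, and the ribosomal precursor gene Rn45s took 4.30% of control A and between 8.69% and 14.4% of the other 4 libraries. Markers of the eyeball were present in each library: 10 lens genes summed to 22300 to 23351 CPM (estimated counts scaled to a common library total) in the controls and to 23730 to 24412 CPM in the blue libraries. In edgeR's quasi-likelihood test, with p-values adjusted by the Benjamini-Hochberg method over 18988 genes, 126 were higher and 295 lower under blue light at the threshold of 0.05. With library totals as the only scaling the split was 124 higher and 150 lower, and DESeq2 called 823 and 858. These counts rest on few libraries: edgeR called 0 and 0 when control B was left out, 6 and 2 for control A, 6 and 5 for blue C, and 0 and 0 with the library letter as a replicate block.

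The promoter letters of the members are shown first because HSF1 reads them. RefSeq promoter windows (build GRCm38.p6, 250 bases before to 50 bases after a gene's start) were found for 7 of the 10 members, in 9 windows. Hspa1a (chr17:34969359-34972156) and Hspa1b (chr17:34956429-34959238), the stress-inducible HSP70 genes, lie 10120 bases apart on the minus strand, and their windows are nearly the same sequence. The stretches before the start are printed 5′ to 3′, with the pair of inverted GAA units in capitals.
Hspa1a (chr17:34972157-34972406, minus strand): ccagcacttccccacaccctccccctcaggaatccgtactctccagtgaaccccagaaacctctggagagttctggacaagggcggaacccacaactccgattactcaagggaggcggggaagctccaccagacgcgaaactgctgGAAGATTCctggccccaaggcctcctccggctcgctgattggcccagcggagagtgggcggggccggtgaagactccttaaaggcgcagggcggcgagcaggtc
Hspa1b (chr17:34959239-34959488, minus strand): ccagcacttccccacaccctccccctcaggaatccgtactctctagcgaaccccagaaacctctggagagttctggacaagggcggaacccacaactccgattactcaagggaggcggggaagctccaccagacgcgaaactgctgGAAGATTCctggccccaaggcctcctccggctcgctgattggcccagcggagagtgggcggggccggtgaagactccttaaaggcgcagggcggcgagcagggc
Over the 300 positions of the windows 296 were identical (98.7%). Counted from 1 at the 5′ end of the window, the differences from Hspa1b to Hspa1a were T44C, C47T, G249T and T276C. The capitals mark GAANNTTC at -104 to -97, at the same distance from both starts.

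Hspb1, the small heat shock protein HSP27, held GAANNTTC at 2 places before its start, at -117 to -110 and at -97 to -90. The stretch below is shown because it holds both.
Hspb1 (chr5:135887779-135887858, plus strand): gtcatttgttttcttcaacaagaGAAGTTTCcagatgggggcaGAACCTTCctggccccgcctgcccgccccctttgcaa
Hsph1, the HSP110 exchange factor, was the only one of the 7 members with an unbroken run of 3 units. Both of its RefSeq starts lie inside the annotated gene span, and the run falls after each of them, at 16 to 28 from one and at 37 to 49 from the other. Bag3 and Hspb8 had 1 match each, also after the start, and 30 bases are shown for each of these genes.
Hsph1 (chr5:149636279-149636308, minus strand): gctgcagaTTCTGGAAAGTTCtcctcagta
Hspb8 (chr5:116422844-116422873, minus strand): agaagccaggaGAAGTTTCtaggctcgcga
Bag3 (chr7:128523603-128523632, plus strand): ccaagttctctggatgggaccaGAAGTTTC

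The longer motif searched was a heat shock element of 3 units in a row, GAA, TTC and GAA with 2 bases between them, on both strands. The shorter was a pair of units, GAANNTTC or TTCNNGAA, which the longer one contains. The longer form was in 1 of 7 members (14.3%) and in 0.662% of the 27025 genes with a window. The shorter form was in 6 of 7 members (85.7%) and in 17.0% of all genes. Among 16 heat-inducible genes outside the members that had a window, 3 held the longer and 6 the shorter form. Dnajb1 had neither form in its 2 windows, which says only that these letters are not there. A match is a description of letters, and Hspa1a and Hspa1b count as separate genes although their windows are nearly one sequence.

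**Figure D1:**
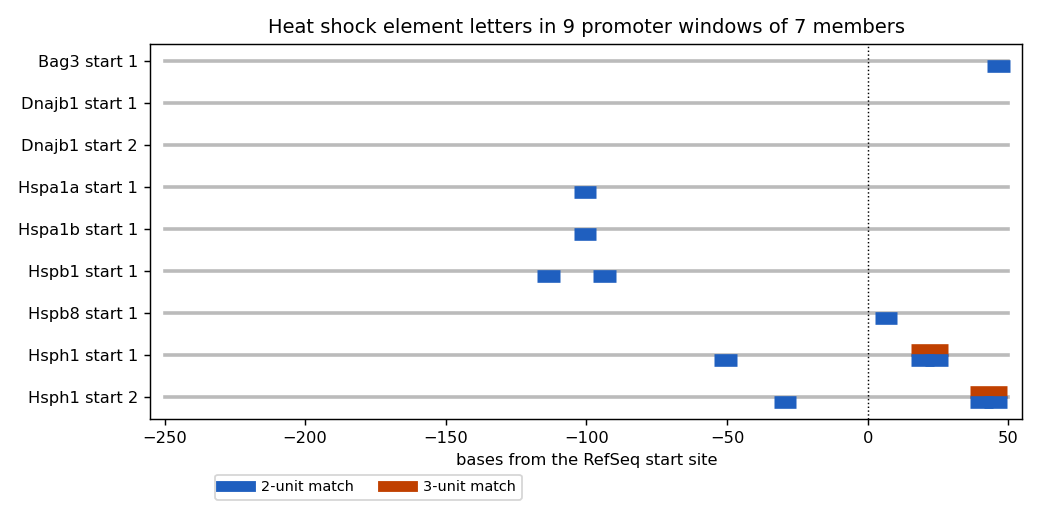
Position of heat shock element letters, in bases from the RefSeq start site (dotted line), in 9 windows of 7 members. Blue blocks are matches of 2 units and orange blocks of 3 units. Hspa1a, Hspa1b and Hspb1 have their matches before the start, Hspb8 and Bag3 after it, Hsph1 on both sides, and Dnajb1 has none.

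The comparison asked whether chaperone mRNA differed between eyes under blue light and under natural light. None of the 10 members passed in either direction. Log2 fold changes (log2FC, blue minus natural light) ran from -0.35 for Hsp90aa1 to 0.31 for Bag3, 5 were positive and 5 negative, and their median was 0.0074 beside -0.0056 over all tested genes. Of all tested genes 2.22% were called, 0.664% higher and 1.55% lower. In edgeR 1 member had an unadjusted p under 0.05, as did 16.3% of all genes, and DESeq2 and limma-voom called 0 members as well, each with 1 at an unadjusted p under 0.05. DESeq2 called 8.70% of all genes and limma-voom 2.41%, and 17.0% and 16.6% had an unadjusted p under 0.05 in them. The median absolute log2FC was 0.15 for the members and 0.18 for all tested genes. For each member the 95% interval, computed from edgeR's standard error (SE), lay between -0.79 and 0.74, so that a 2-fold change in either direction was outside it. That SE was derived from the log2FC and the F statistic and restates the test.

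**Figure D2:**
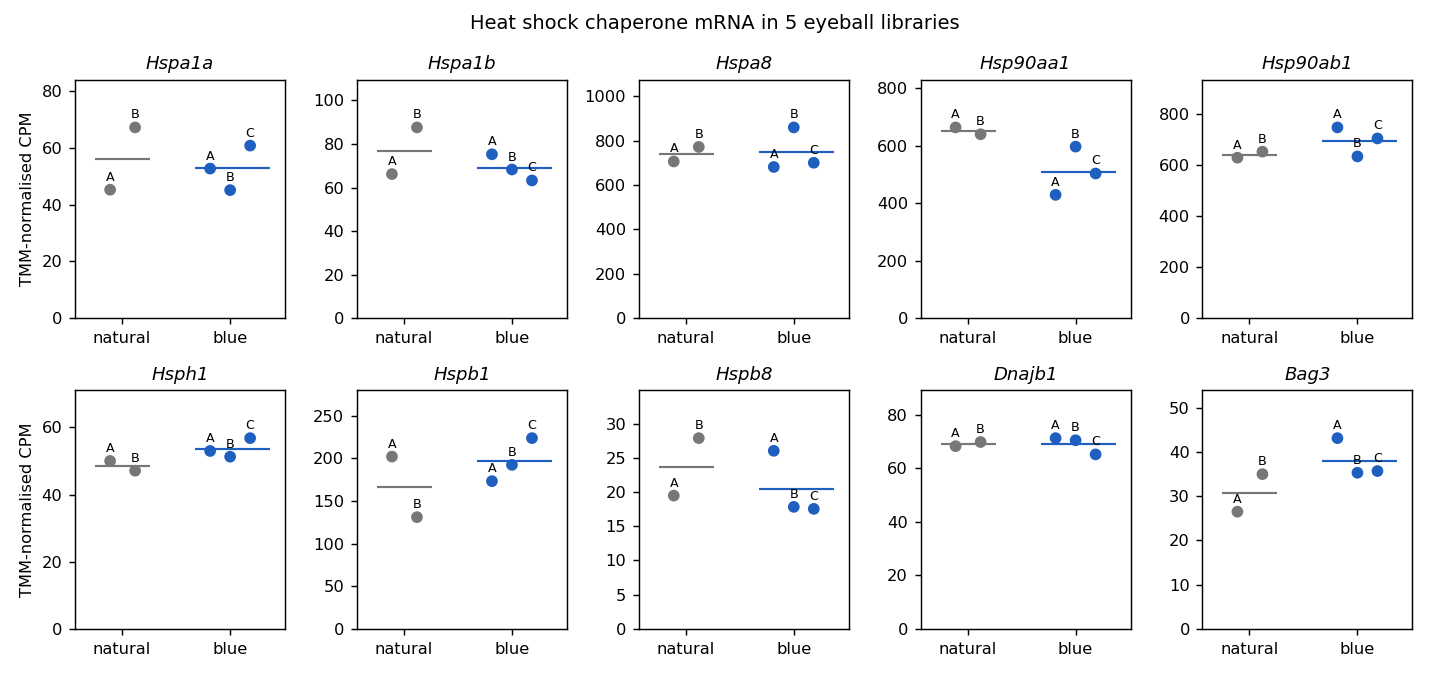
TMM-normalised CPM (vertical axes, from 0) of the 10 members in each library, with letters naming the library, grey for natural light (n = 2) and blue for blue light (n = 3), and horizontal lines at the group means. The groups overlap for 7 members; Hsp90aa1 is lower, and Hsph1 and Bag3 are higher, in each blue library than in both controls.

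The inducible HSP70 genes came first. Levels are CPM after TMM scaling, and are compared within a gene only, because transcript lengths were not used here. Hspa1a stood at 45.3 and 67.2 CPM in control A and B and at 52.7, 45.1 and 60.8 CPM in blue A, B and C. The groups overlapped, with the highest value in control B and the lowest in blue B (log2FC -0.088, SE 0.20, edgeR adjusted p = 0.882). Hspa1b stood at 66.2 and 87.6 CPM in the controls and at 75.3, 68.3 and 63.3 CPM in blue A, B and C (log2FC -0.16, SE 0.14, edgeR adjusted p = 0.658). It too was highest in control B. Without control B the log2FC turned positive for both genes, to 0.22 for Hspa1a and 0.058 for Hspa1b.

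Hspa1a and Hspa1b are known as closely similar copies, between which counting may split reads, and their transcripts were not compared here. Hspa1a and Hspa1b together stood at 111 and 155 CPM in the controls and at 128, 113 and 124 CPM in the blue libraries. The blue libraries all lay between the controls, which themselves differed 1.48-fold for Hspa1a and 1.32-fold for Hspa1b. The ratio of Hspa1a to Hspa1b was 0.684 in control A and 0.767 in control B, against 0.700, 0.661 and 0.961 under blue light, so that blue C had the most even split.

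Hspa8, the constitutive HSP70 of the cytosol (chr9:40801276-40805202), stood at 706 and 771 CPM in the controls and at 681, 859 and 700.0 CPM in blue A, B and C. Blue B was the highest and blue A the lowest library of all, and the group means were 738 ± 46.2 (SD, n = 2) and 747 ± 97.8 CPM (SD, n = 3). The log2FC was 0.016 (SE 0.12, edgeR adjusted p = 0.968). Its annotated span holds 3 small nucleolar RNA genes, Snord14c, Snord14d and Snord14e, whose reads could not be told from those of Hspa8 here.

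Of the HSP70 partners, Dnajb1 and Hsph1 varied little between libraries and Bag3 more. Dnajb1, the J-domain protein that delivers substrate to HSP70 (chr8:83608175-83612653), stood at 68.2 and 69.8 CPM in the controls and at 71.2, 70.5 and 65.2 CPM in blue A, B and C. The 5 libraries lay close together, and the log2FC of -0.0013 (SE 0.076, edgeR adjusted p = 0.996) had a 95% interval from -0.19 to 0.18. Hsph1, which releases ADP from HSP70 (chr5:149616843-149636498), stood at 49.98 and 47.1 CPM in the controls and at 53.0, 51.3 and 56.8 CPM in the blue libraries. Each blue library was above both controls, by a small margin (log2FC 0.14, SE 0.081, 95% interval -0.055 to 0.34, edgeR adjusted p = 0.450).

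Bag3, a co-chaperone that joins HSP70 to small heat shock proteins and to autophagy (chr7:128523583-128546981), had the highest positive log2FC of the members. It stood at 26.5 and 34.98 CPM in the controls and at 43.1, 35.3 and 35.7 CPM in blue A, B and C. Blue A was the highest, while blue B and blue C lay within 1 CPM of control B. The 8 microglia and macrophage markers, all in the table and none at 0 in all libraries, had the same order of libraries. They summed to 74.2 and 105 CPM in the controls and to 221, 157 and 171 CPM under blue light. This match was found by looking through the orders of all 10 members and all marker sets. The part of these markers' cells in the values of Bag3 was not tested. The log2FC was 0.31 (SE 0.16, 95% interval -0.077 to 0.69, edgeR adjusted p = 0.406), and it was 0.15 without control A and 0.52 without control B. Of all tested genes 35.6% had groups that did not overlap, 15.6% with blue light higher and 20.1% with blue light lower, and among the members 2 of 10 were higher and 1 lower in this sense.

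The cytosolic HSP90 genes had log2FC of opposite sign. Hsp90aa1, the inducible form (chr12:110691036-110696395), stood at 664 and 641 CPM in the controls and at 430, 598 and 504 CPM in blue A, B and C. Each blue library was below both controls, blue A the most (means 652 ± 16.8 and 510 ± 84.2 CPM, SD, n = 2 and n = 3). The log2FC was -0.35 (SE 0.14, 95% interval -0.70 to -0.0078), and its unadjusted p of 0.0464 became 0.298 after Benjamini-Hochberg adjustment in edgeR.

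Hsp90ab1, the constitutive form (chr17:45567778-45573261), stood at 627 and 651 CPM in the controls and at 746, 632 and 703 CPM in blue A, B and C. Blue A and blue C were above both controls and blue B was between them (log2FC 0.12, SE 0.091, edgeR adjusted p = 0.593). The CPM ratio of Hsp90aa1 to Hsp90ab1, not corrected for length, was 1.06 in control A and 0.984 in control B, against 0.576, 0.945 and 0.717 under blue light. The ratio was lower in each blue library than in both controls. Its exact two-sided permutation p was 0.2, the smallest that 2 against 3 libraries allow, and 0.7 after adjustment over the 7 ratios and sums compared, which were chosen with the members' values known. The sum of both genes was 1292 CPM in each control and 1175, 1229.9 and 1207 CPM in the blue libraries (exact two-sided permutation p = 0.2).

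The order of the 5 libraries for Hsp90aa1, from control A and control B to blue B, blue C and blue A, was also that of the rod and of the cone photoreceptor markers. The 10 rod genes, all present in the table, summed to 23369 to 24551 CPM in the controls and to 4393, 8161 and 6408 CPM in blue A, B and C, and none was at 0 in all libraries. The 6 cone genes, of which the same holds, summed to 416 and 325 CPM in the controls and to 250.2, 318 and 258 CPM under blue light. Aipl1, a photoreceptor co-chaperone of HSP90 needed for the rod phosphodiesterase, had the same order, at 194 and 181 CPM in the controls and at 121, 165 and 155 CPM in the blue libraries (log2FC -0.35, SE 0.14, edgeR adjusted p = 0.301). The match of Hsp90aa1 with the rod and cone markers was also found by looking through the orders of all members and all marker sets. Hsp90ab1 shared its order with the adipocyte markers in the same way. These summed to 2.64 and 4.82 CPM in the controls and to 14.4, 4.22 and 11.6 CPM in blue A, B and C. With 5 libraries such matches are easily found. The part of rod or cone content in the values of Hsp90aa1 was not tested. In whole eyeballs fewer cells of a type and less RNA per cell cannot be told apart.

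For the small heat shock proteins Hspb1 and Hspb8 the controls differed by more than the groups did. Hspb1 (chr5:135887919-135889563) stood at 202 and 131 CPM in the controls and at 173, 192 and 224 CPM in blue A, B and C. Control B was the lowest library and blue C the highest, with control A among the blue libraries (log2FC 0.24, SE 0.20, edgeR adjusted p = 0.637). Without control B the log2FC was -0.041, and without control A it was 0.61, so the sign rests on control B.

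Hspb8, the small heat shock protein that works in a complex with BAG3 (chr5:116408491-116422864), stood at 19.5 and 27.9 CPM in the controls and at 26.0, 17.8 and 17.5 CPM in blue A, B and C. Control B and blue A were high and the other 3 libraries low, which is a division across the groups (log2FC -0.21, SE 0.24, edgeR adjusted p = 0.730). The annotated lncRNA gene Gm36841 overlaps its span, and no row of the table carried that symbol. The same 2 libraries were highest for the skeletal muscle markers, of which 10 of 10 were in the table and none at 0 in all libraries. These summed to 550 and 1132 CPM in the controls and to 1153, 574 and 597 CPM in blue A, B and C.

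The small heat shock proteins outside the members were not alike in this. Hspb6 stood at 59.3 and 74.6 CPM in the controls and at 68.4, 35.4 and 42.3 CPM in the blue libraries (log2FC -0.46, SE 0.29, edgeR adjusted p = 0.499). Hspb7, named after its values were seen, stood at 1.56 and 7.02 CPM and at 5.92, 2.61 and 2.80 CPM. Both were highest in control B and next in blue A, and Hspb6 in control A lay nearer to blue A than to blue B and blue C. Hspb2 had another order, at 1.5002 and 1.64 CPM in the controls and at 1.92, 2.05 and 1.78 CPM in the blue libraries, each above both controls (log2FC 0.29, SE 0.23, edgeR adjusted p = 0.604). Hspb1 did not follow the muscle order either. Hspb8 and the muscle markers had only their highest libraries, control B and blue A, in common. Control A was the lowest library for the muscle markers but not for Hspb8. Hspa1b also had control B and blue A as its highest libraries. This likeness too was found by looking through the orders of all members and all marker sets. The part of muscle content in the values of Hspb8 was not tested.

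**Figure D3:**
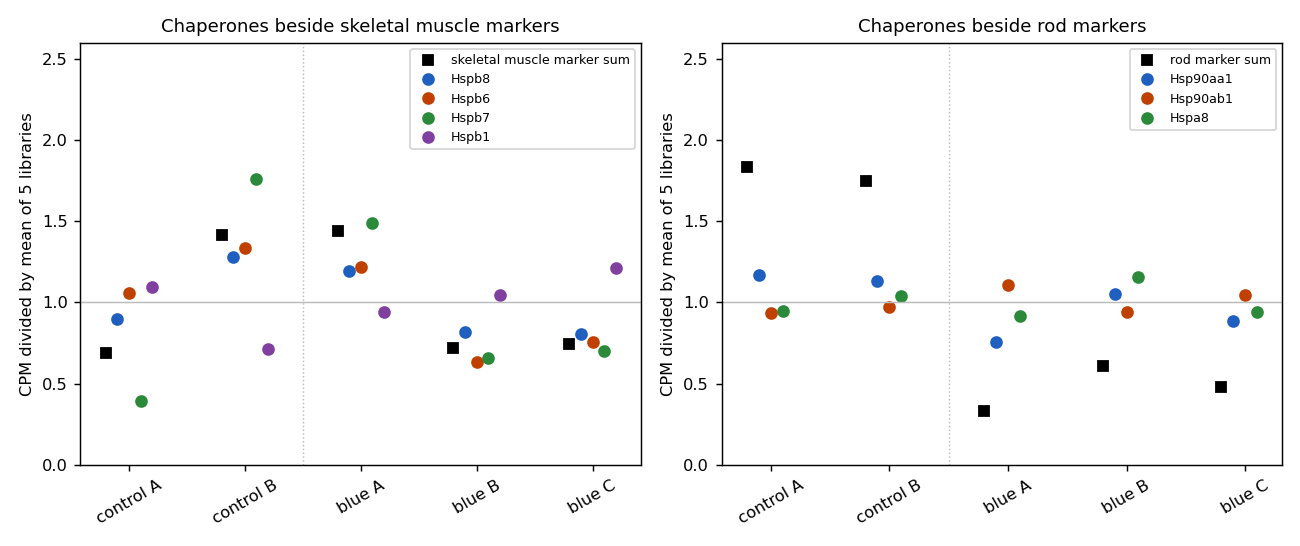
CPM of chaperones and of summed marker genes, each divided by its mean over the 5 libraries (vertical axis), by library (horizontal axis, dotted line between the groups). Left, Hspb8, Hspb6 and Hspb7 and the muscle markers (black squares) are above 1 in control B and blue A, Hspb6 also in control A, while Hspb1 is below 1 there. Right, the rod markers are above 1.5 in both controls and below 1 in each blue library, and Hsp90aa1 keeps their order over a much narrower range.

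For 7 of the 10 members the difference between the 2 controls was larger, on the log2 scale, than the log2FC between the groups. The exceptions were Hsp90aa1, Hsp90ab1 and Hsph1. The share of all tested genes with such a difference was not computed, so 7 of 10 cannot be read as particular to the members. The controls differed 1.54-fold for Hspb1, 1.43-fold for Hspb8 and 1.32-fold for Bag3, but 1.02-fold for Dnajb1. Between the highest and the lowest blue library the span was widest for Hspb8 (1.48-fold) and Hsp90aa1 (1.39-fold) and narrowest for Dnajb1 (1.09-fold). All 10 members summed to 2475 and 2528 CPM in the controls and to 2351, 2569.5 and 2429.5 CPM in the blue libraries, which overlap (exact two-sided permutation p = 0.6).

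**Figure D4:**
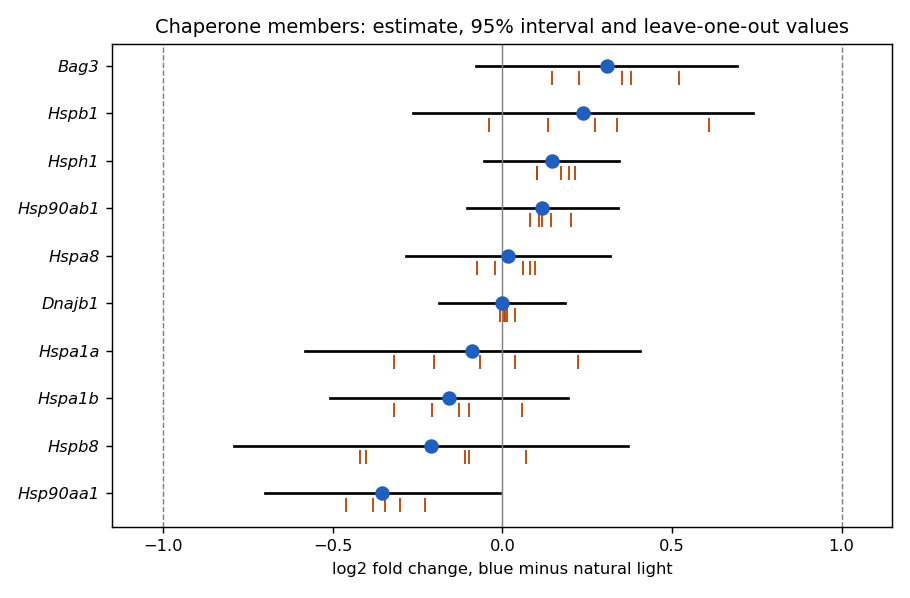
Log2 fold change (horizontal axis) of each member, with its 95% interval (black line) and the values with each library left out in turn (orange ticks). Dashed lines mark 2-fold changes. All intervals lie within the dashed lines, and only that of Hsp90aa1, from -0.70 to -0.0078, does not include 0.

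Likeness between profiles was measured as the Euclidean distance between log2 CPM, centred for each gene, over the 5 libraries. Among the members, Hsp90ab1 and Hsph1 were the closest pair (0.186) and Hspb1 and Hspb8 the farthest (1.18). Hspa1a and Hspa1b lay 0.435 apart, which is more than the 0.319 between Hspa1b and Hspb8. Outside the members, Cdk20, Taf5 and Icmt were nearest to Hsp90aa1 (0.0711 to 0.0901), and Mgst1, Ndufa1 and Papln to Bag3 (0.0442 to 0.0703). Arrdc4, Slc34a2 and Epn3 were nearest to Hspb8 (0.0854 to 0.0947). With 5 libraries and 18988 genes, close profiles are easily found, and these are given as a description.

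The factors that control the members did not pass either. Hsf1, the main heat shock factor, stood at 34.2 and 33.9 CPM in the controls and at 27.6, 30.9 and 31.0 CPM in the blue libraries (log2FC -0.19, SE 0.088, edgeR adjusted p = 0.363). Hsf2 stood at 24.7 and 22.2 CPM and at 20.9, 21.5 and 19.1 CPM. Both were lower in each blue library than in both controls, as were 20.1% of all tested genes. Hsf4, the factor of the lens, was higher in each, as were 15.6% of all tested genes. It stood at 21.5 and 18.6 CPM in the controls and at 21.8, 21.7 and 25.3 CPM in the blue libraries (log2FC 0.19, edgeR adjusted p = 0.499). Hsf3, named after its values were seen, was listed at 0 in control A and below 0.4 CPM in the other libraries.

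Beyond the members, 97 genes of the chaperone network in 11 lists were all tested, and edgeR called 0 of them. Their median log2FC was 0.039, with 53 positive and 44 negative. An unadjusted p under 0.05 was found for 9 (9.28%, beside 16.3% of all genes), and limma-voom called 0 (2.41% of all genes) and DESeq2 1 (8.70% of all genes). Groups did not overlap for 45 (46.4%, beside 35.6% of all genes), 26 with blue light higher and 19 with blue light lower. The gene DESeq2 called was Synpo, a partner of BAG3 in chaperone-assisted autophagy, at 44.8 and 46.2 CPM in the controls and 70.0, 57.7 and 64.9 CPM in the blue libraries. Each blue library was above both controls (log2FC 0.50, SE 0.10, adjusted p = 0.0816 in edgeR and 0.000363 in DESeq2).

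Other HSP70 and HSP110 genes (9, median log2FC 0.022) included Hspa14, a ribosome-associated HSP70, at 43.5 and 46.1 CPM in the controls and 33.1, 39.5 and 35.1 CPM in the blue libraries (edgeR adjusted p = 0.1996). Hspa4l had a log2FC of -0.24 and the mitochondrial Hspa9 one of 0.17. Of the 7 mitochondrial chaperones 0 had an unadjusted p under 0.05, and Hspd1 and Hspe1, the mitochondrial chaperonin and its lid, had log2FC of 0.12 and 0.15. For the 9 genes of the cytosolic chaperonin the median was 0.042, with Cct2 at 0.13 and Tcp1 at 0.11. The 12 other J-domain genes had a median of 0.017, with Dnajb14 (-0.22) and Dnajb12 (-0.21) at unadjusted p of 0.0407 and 0.0419 in edgeR, fitted over all genes. The 8 genes of the BAG family and of HSP70 nucleotide exchange had a median of 0.074, and none had an unadjusted p under 0.05.

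Of 12 endoplasmic reticulum chaperones 10 had a positive log2FC (median 0.14, beside -0.0056 over all tested genes), and edgeR called 0. An unadjusted p under 0.05 in edgeR was found for 2, beside 16.3% of all genes. Groups did not overlap for 6 with blue light higher and 1 with blue light lower, beside 15.6% and 20.1% of all genes. Hspa5, the HSP70 of that compartment, stood at 203 and 237 CPM in the controls and at 258, 262 and 260.3 CPM in the blue libraries (log2FC 0.24, SE 0.087, edgeR adjusted p = 0.248). Pdia6, a disulfide isomerase, had a log2FC of 0.27 (edgeR adjusted p = 0.216). The blue libraries of Hspa5 were all above both controls and close together. Serpinh1, the collagen chaperone, went the other way, at 104 and 128 CPM in the controls and 55.4, 103 and 57.3 CPM in the blue libraries (log2FC -0.70, edgeR adjusted p = 0.316). Without blue B its log2FC was -1.02 and its adjusted p 0.0414 in edgeR.

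The 16 HSP90 co-chaperones had a median of -0.0059. Chordc1, a heat-inducible co-chaperone, had a log2FC of 0.22 (SE 0.088, edgeR adjusted p = 0.297) and Ptges3, the HSP90 cofactor p23, one of 0.15. The 18 heat-inducible genes outside the members had a median of 0.041 with 10 positive and 8 negative, and 1 of them, Chordc1, had an unadjusted p under 0.05. The 9 partners of BAG3 had a median of 0.039, with 5 positive and 4 negative. Of these, Sqstm1, the autophagy receptor p62, stood at 153 and 158 CPM in the controls and at 186, 168 and 177 CPM in the blue libraries. Its log2FC was 0.18 (edgeR adjusted p = 0.299). Tsc1 and Synpo2 were lower in each blue library than in both controls, as were 20.1% of all tested genes, with log2FC of -0.19 and -0.18. The lens crystallin Cryaa, a small heat shock protein, stood at 11561 and 10256 CPM in the controls and at 10377, 9866 and 11262 CPM in the blue libraries, and its 95% interval ran from -0.32 to 0.21.

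**Figure D5:**
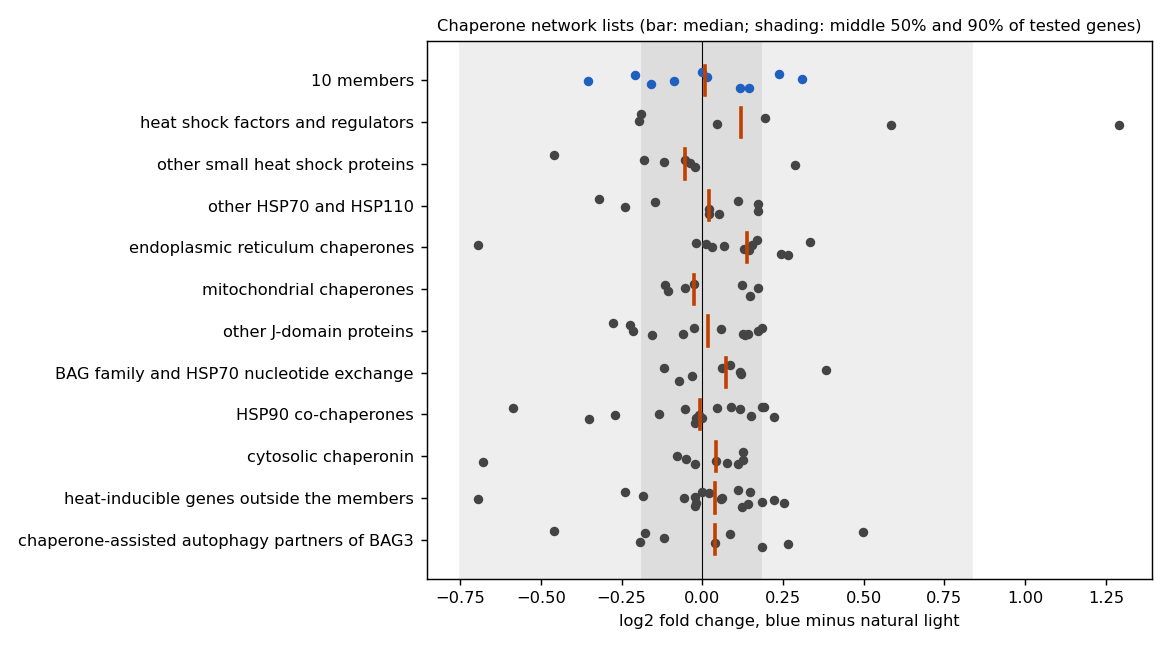
Log2 fold change (horizontal axis) of each gene in the 10 members and in 11 lists of chaperone genes (rows; a gene may stand in more than 1 list), with the median of each row as an orange bar. The darker and lighter shading hold the middle 50% and 90% of all tested genes (-0.19 to 0.18 and -0.75 to 0.84). Each row's median lies within the darker band, and the point at 1.29 is Hsf3, which was near 0 CPM.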

How the data were processed

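Each mRNA library was made from eyeball RNA that was depleted of ribosomal RNA and primed at random, per the labels' protocols. The deposited mRNA table was read as estimated counts, 1 row per gene symbol, to which the authors had applied no normalisation, judging from the values. HISAT2, StringTie, DESeq2, limma, bcl2fastq 2.0 and mm10 are listed, with no role, in the submitters' processing notes, which do not say whether strand was used. Titles tied columns to samples, and source names gave the groups.

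Groups were compared with edgeR 4.0.16 in R 4.3.3: values were already whole, so rounding changed nothing; filterByExpr by group, TMM scaling and the quasi-likelihood F-test followed. Adjusted p-values (Benjamini-Hochberg, all tested genes) were held to 0.05. The 95% intervals use the test's SE and degrees of freedom. No counting intervals are given, since the estimated counts need not be single fragments. Few counts stood behind Hsf3 and Hsf5.

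The members and lists were chosen with earlier results of these data known. Named were the 10 members, Hsf1, Hsf2 and Hsf4, and up to 4 genes with the smallest p of a list. The 3 nearest profiles were found for each member but are named for Hsp90aa1, Bag3 and Hspb8 only. Alternatives were DESeq2's size factors, library totals, TMM without genes of lens, muscle and red blood cells, no filter, a minimum mean CPM of 5, DESeq2 1.42.0, limma-voom (limma 3.58.1), an absolute log2FC of at least 1, the letter as a block, each library left out, and Hspa1a and Hspa1b summed. Library totals without Rn45s were added after seeing the data. The pipeline was tested on simulated data. Promoter letters are RefSeq's. Protein sequences and the miRNA table were not used here.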

Additional observations from a re-analysis of the deposited data

How the results depend on the processing

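No member passed in any of the 16 alternatives, counting Hspa1a and Hspa1b as 1 feature where they were summed, and the range without each library was 0 to 0 in each direction. The cut at an absolute log2FC of at least 1 uses the main fit's calls and estimates, so it could neither add a call nor change a sign. TMM without genes of lens, muscle and red blood cells hardly moved the estimates. Hsp90aa1 stayed negative (-0.46 to -0.23), and Hsp90ab1 (0.081 to 0.20), Hsph1 (0.10 to 0.22) and Bag3 (0.15 to 0.52) stayed positive in all 16. The other 6 changed sign, none with an adjusted p under 0.05, and the cause was not tested. Without each library in turn the log2FC ran from -0.32 to 0.22 for Hspa1a, from -0.32 to 0.058 for Hspa1b, from -0.076 to 0.096 for Hspa8, from -0.041 to 0.61 for Hspb1, from -0.42 to 0.071 for Hspb8 and from -0.0077 to 0.038 for Dnajb1. The sign changed without control B for Hspa1a, Hspa1b, Hspb1, Hspb8 and Dnajb1 (0.015), without blue B for Hspa1a (0.036), Hspa8 and Dnajb1 (0.0040), and without control A for Hspa8 (-0.021) and Dnajb1 (0.0080). Dnajb1 was also positive without blue C (0.038), with DESeq2's size factors (0.018), library totals (0.047), library totals without Rn45s (0.079), a mean CPM of at least 5 (0.0040) and DESeq2 (0.018).

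Of the 97 network genes, DESeq2 called 1 higher, Synpo, and the fit without blue B called 1 lower, Serpinh1; leaving out each library gave 0 to 0 higher and 0 to 1 lower. Over the whole table the lower count was 150 with library totals. DESeq2 called 823 higher and 858 lower. Of the genes that edgeR called, 65 higher and 133 lower also had an absolute log2FC of at least 1. Without each library in turn the counts ran from 0 to 98 higher and from 0 to 213 lower, namely 0 and 0 when control B was left out, 6 and 2 for control A and 6 and 5 for blue C. A fit that leaves 1 control assumes that it varies like the blue libraries.

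With the letter as a replicate block 0 genes were higher and 0 lower in edgeR, where 1455 had an unadjusted p under 0.05, and the log2FC of Dnajb1 was 0.038. Only a blue library has the letter C, so blue C adds nothing to the light effect in that fit. It is therefore close to the fit without blue C and is not a separate check. The deviations of same-letter libraries from their group means correlated at -0.182 for A and -0.147 for B. With 2 controls, the deviations of control A and control B are mirror images, so these values cannot decide whether letters pair libraries. The letters are not said to pair samples, and the main fit used no block.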
